A study of Homo sapiens with 9 samples.

Results

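HCCC-9810 cells, a human intrahepatic cholangiocarcinoma line, were compared after transfection with BAP1 siRNAs (si-BAP1, 3 arrays) and with MBD5 siRNAs (si-MBD5, 3 arrays). All 6 arrays of those groups were taken, out of 9 in the series, with all 49293 non-control probe sets of each array. The other 3 arrays carry cells with a control RNA, named si-Control in the titles and a control shRNA elsewhere in the labels, and they serve here to state which knockdown had moved. Each array read total RNA of the whole culture, and the labels describe 3 biological replicates per group of this 1 line, so p-values measure the spread between those cultures. Single arrays are written B1 to B3 (si-BAP1), M1 to M3 (si-MBD5) and C1 to C3 (si-Control), after the replicate numbers in the labels. The siRNA sequences, the dose and the time after transfection are not given in the sources used here.

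BAP1 is a nuclear deubiquitinase that removes ubiquitin from histone H2A. It works in the Polycomb repressive deubiquitinase complex, in which an ASXL protein activates it and proteins such as FOXK1, FOXK2, HCFC1, OGT and MBD5 or MBD6 join it. The modification it removes is laid down by Polycomb repressive complex 1. BAP1 is a tumour suppressor that is lost in a share of intrahepatic cholangiocarcinomas. MBD5 carries a methyl-CpG-binding domain and binds the complex, which makes the direct comparison a question of where loss of the enzyme and loss of this partner leave cells in different states.

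BAP1 itself was not analysed here, so the si-BAP1 label was not checked on its target. The brighter MBD5 probe set read 8.66, 7.61 and 6.99 on the si-BAP1 arrays, 6.20, 6.20 and 6.11 on the si-MBD5 arrays and 7.16, 7.06 and 6.90 on the si-Control arrays. On that probe set the si-MBD5 arrays were the lowest 3 of the 9. All 9 values lay near the background probes, whose medians were 4.77 to 5.23, and the log2 difference between the knockdowns was 0.099 ± 0.027 (SE) with an adjusted p of 0.0657 in limma over all probe sets (exact permutation p = 0.1, two-sided, the smallest that 3 against 3 allows). The dimmer MBD5 probe set read 2.516, 2.734 and 2.177 with si-BAP1, 2.384, 2.244 and 2.384 with si-MBD5 and 1.975, 2.679 and 2.515 with si-Control. There a si-Control array was lowest, and the knockdowns differed by 0.011 ± 0.019 (SE, adjusted p = 0.864, limma, exact permutation p = 0.5). The array medians lay between 36.9 and 38.2, and correlation was 0.9977 to 0.9989 between arrays of 1 group and 0.9966 to 0.9982 between si-BAP1 and si-MBD5 arrays. The ratio of the 3' to the 5' ACTB probe set, a measure of RNA quality and labelling, was 11.2, 11.4 and 10.8 with si-BAP1 and 13, 12.4 and 11.6 with si-MBD5 (11.1 ± 0.31 against 12.3 ± 0.72, SD, n = 3, exact permutation p = 0.1). With si-Control the ACTB ratio was 11.8, 12 and 12.8. The same ratio for GAPDH was 1.08, 1.07 and 1.09 with si-BAP1 and 1.07 on each si-MBD5 array (exact permutation p = 0.2). The part of RNA quality in the results below was not tested. The biliary keratin KRT7 averaged 992 over the 6 arrays, but 9 of 18 cholangiocyte markers on the array lay below the intensity filter of 25.5, among them KRT19 at 20.5 and EPCAM at 9.05. The summed level of those 18 markers was 3228 to 3382 with si-BAP1 and 3085 to 3168 with si-MBD5. ALB and PTPRC, markers of hepatocytes and leukocytes, averaged 7.76 and 3.59. Other members of those lists were brighter, up to CPS1 at 428 among hepatocyte markers and CD68 at 62.9 among immune markers. None of the 6 hepatocyte, 9 fibroblast and endothelial and 9 immune markers above the filter was called between the knockdowns by limma.

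The knockdowns differed in many genes by small amounts. Of 12431 genes tested, 1240 (9.98%) were called, 716 (5.76%) higher and 524 (4.22%) lower in si-BAP1 than in si-MBD5. A gene was called where limma gave an adjusted p under 0.05, and every log2 difference below is the mean of log2(intensity + 16) in si-BAP1 minus that in si-MBD5, a scale that understates changes of dim genes. The median size of a called difference was 0.22, or 1.17-fold. Only 21 called genes were higher and 30 lower by 0.5 or more, and 1 gene, DHRS2, exceeded 1. In 1231 of the 1240 called genes the 3 arrays of the groups did not overlap, where 3107 of all genes tested (25.0%) showed such a separation. The majority of higher calls did not hold under every scaling. With quantile normalization 608 genes were higher and 715 lower, 46% higher in place of 57.7%. Without B2 the split was 372 to 474 and without M1 it was 346 to 375. Without B3 and without M1 the calls numbered 759 and 721. The share of genes called rose with brightness, from 2.64% in the dimmest of 4 equal groups of genes to 15.2% in the brightest, while the median size of a call fell from 0.247 to 0.19. In RNA from whole cultures, fewer cells of a type and less RNA per cell cannot be told apart.

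**Figure D1:**
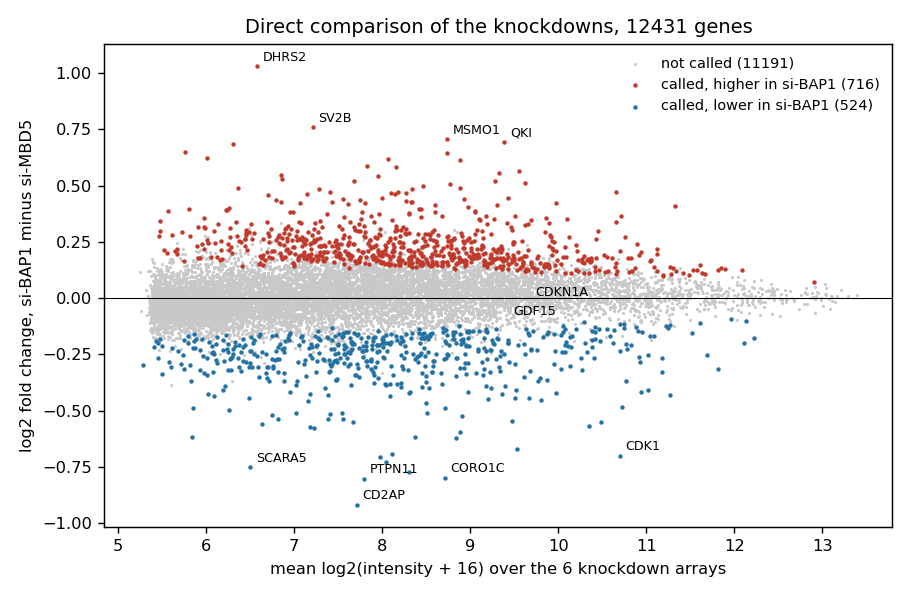
Each of the 12431 genes is a point, with its mean log2(intensity + 16) over the 6 knockdown arrays on the x axis and its log2 difference, si-BAP1 minus si-MBD5, on the y axis; red and blue points are the 716 higher and 524 lower calls. Most calls lie close to the line at 0, and DHRS2 and CD2AP lie farthest from it.

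The gene with the largest rise was DHRS2, a short-chain dehydrogenase/reductase. It read 115, 122 and 125 with si-BAP1, 47.4, 51.4 and 53.7 with si-MBD5 and 61.0, 60.1 and 64.2 with si-Control. The si-BAP1 arrays lay above and the si-MBD5 arrays below all controls, and the log2 difference was 1.03 ± 0.050 (SE, adjusted p = 2.51e-07, limma), which is 2.04-fold. SV2B, a synaptic vesicle glycoprotein, read 174, 176 and 180.1 against 89.4, 100 and 105, with 83.1, 77.7 and 77.9 in the controls. Both knockdowns raised it from control, si-BAP1 by 1.01 and si-MBD5 by 0.25 on the log2 scale. MSMO1, a C4-methylsterol oxidase of cholesterol synthesis, read 491, 581 and 516 against 326, 331 and 296, with 432, 451 and 500.2 in the controls. There the si-MBD5 arrays were the ones below control (log2 difference from control -0.51, adjusted p = 0.000188, limma), while si-BAP1 was not called (adjusted p = 0.0522). QKI, an RNA-binding regulator of splicing, had the same order of groups, at 818, 853 and 837 with si-BAP1, 535, 555 and 446 with si-MBD5 and 742, 708 and 790.4 with si-Control. All 3 further QKI probe sets were called higher too.

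The 15 largest rises spanned log2 differences of 0.55 to 1.03, with adjusted p of at most 0.00045 in limma and SEs of 0.041 to 0.089. Beside those named they were MPZL3 (0.68), ABCA13 (0.65), ISCA1 (0.64), H2BC11 (0.62), PXYLP1 (0.62), PTAR1 (0.61), MTURN (0.59), DCP2 (0.58), H2BC5 (0.56), IL6ST (0.55) and SERPINI1 (0.55). Among them are a transporter of the ABC family (ABCA13), an iron-sulfur cluster assembly protein (ISCA1), a phosphatase that edits the linker of proteoglycan chains (PXYLP1), an mRNA decapping enzyme (DCP2) and 2 histone H2B genes. In 7 of the 15 both knockdowns had risen from control and si-BAP1 had risen more, in 3 the knockdowns had moved in opposite directions, and in 3 only si-MBD5 was called, each time lower. In IL6ST both had fallen and si-MBD5 had fallen more, and MPZL3 alone was called with si-BAP1 and not with si-MBD5. MPZL3 rests on 1 of its probe sets, since a dimmer one gave -0.010. MTURN likewise had a second probe set that gave 0.060 and was not called.

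The largest fall was read for CD2AP, an adaptor that links receptors to actin: 121, 145 and 145 with si-BAP1, 297, 297 and 229 with si-MBD5 and 264, 272 and 279 with si-Control. The si-BAP1 arrays stood alone below the other 6, with a log2 difference of -0.92 ± 0.086 (SE, adjusted p = 2.35e-05, limma). CD2AP's 2 dimmer probe sets gave -0.11 and -0.28 and neither was called. CORO1C, a coronin that binds actin filaments, read 290.3, 301 and 312 against 517, 556 and 534, with 537, 532 and 506 in the controls. Its log2 difference was -0.80, and all 4 of its further probe sets were called lower. PTPN11, the phosphatase SHP2 that passes receptor signals to RAS, read 149, 167 and 142 against 284, 274 and 275, with 228, 233 and 238 in the controls. The control arrays lay between the knockdowns, and the second PTPN11 probe set was called lower too.

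The 15 largest falls spanned -0.58 to -0.92, with adjusted p of at most 0.00062 in limma. The others were LYSMD2 (-0.77), SCARA5 (-0.75), TULP3 (-0.73), PCGF5 (-0.71), CDK1 (-0.70), SFXN1 (-0.69), MAP3K20 (-0.67), NUP43 (-0.62), PPP3CA (-0.62), DIXDC1 (-0.62), APOO (-0.60) and ATP10D (-0.58). They include a ferritin receptor (SCARA5), a trafficking protein of the primary cilium (TULP3), the mitochondrial serine transporter SFXN1, the stress kinase MAP3K20 (ZAK) and the catalytic subunit of calcineurin (PPP3CA). In 13 of these 15 falls si-BAP1 was called lower than control and si-MBD5 was not called, against 1 of the 15 largest rises with a call in si-BAP1 only. TULP3, for example, read 196, 180.2 and 192 with si-BAP1, 314, 338 and 319.5 with si-MBD5 and 304, 309.9 and 291 with si-Control. Of the 15 rises 14 were called under every alternative run for them, and of the 15 falls 11. The exceptions were IL6ST among the rises and CD2AP, CDK1, NUP43 and PCGF5 among the falls, and each lost its call when probe sets that can match more than 1 transcript (_x_at and _s_at) were left out. A gene absent from an alternative could not lose its call there. Of 21 alternatives, SV2B, ISCA1, MPZL3 and DIXDC1 were run in 20 and ABCA13 and H2BC11 in 19. ABCA13, H2BC11 and SV2B had a single probe set above the filter, of the _s_at kind. They were therefore not run with such probe sets left out. SCARA5 kept its call on its brightest probe set only, since its 2 dimmer ones gave -0.12 and 0.022.

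**Figure D2:**
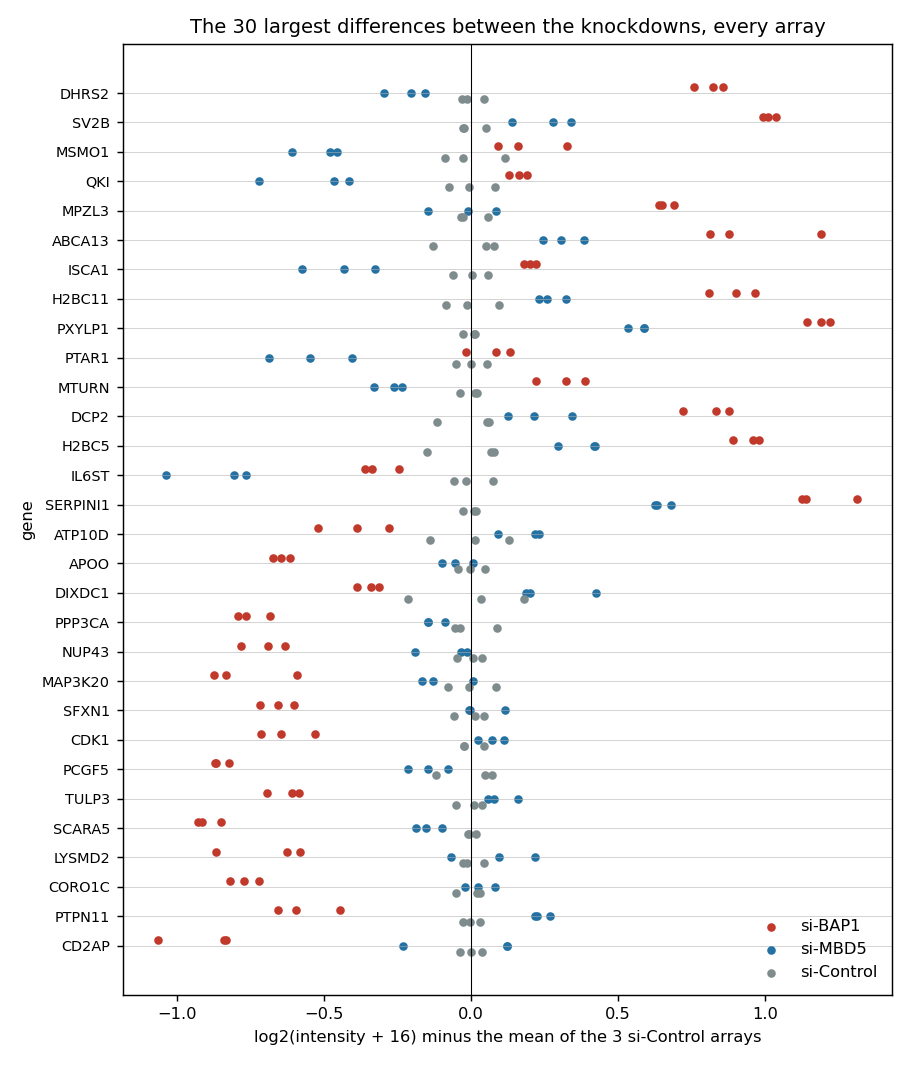
Every array's log2(intensity + 16) minus the mean of the 3 si-Control arrays (x axis) is shown for the 15 largest rises and 15 largest falls (y axis), with si-BAP1 in red, si-MBD5 in blue and si-Control in grey. In most falls the red points stand alone left of the blue and grey ones, while among the rises MSMO1, QKI and PTAR1 have the blue points apart.

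Against the shared si-Control arrays, si-BAP1 had 1536 genes higher (12.4%) and 1382 lower (11.1%), and si-MBD5 908 higher (7.30%) and 1118 lower (8.99%). Because both of those comparisons use the same 3 control arrays, they serve only to place the genes of the direct comparison. Of the 1240 called genes, 548 (44.2%) were called with si-BAP1 and not with si-MBD5, 276 of them higher and 272 lower in si-BAP1 than in si-MBD5. Another 213 (17.2%) were called with si-MBD5 and not with si-BAP1, 157 of them higher and 56 lower in si-BAP1. A call in only 1 knockdown does not show that the other did not move. In 259 genes (20.9%) both knockdowns were called in 1 direction, and si-BAP1 had moved farther in 226 of these and si-MBD5 in 33. In 196 genes (15.8%) neither was called, and in 24 (1.94%) they were called in opposite directions. Some of these counts rest on single arrays. The 548 became 339 without B3, the 213 became 138 without that array, 105 without M1 and 130 without C2, and the 24 became 12 without C2 and 14 without C1. The 226 became 107 without M1, 144 without B3 and 147 without C2, and the 33 became 12 to 20 without B1, B2, B3, C2 or M1. The 196 became 91 without B2 or M1, 103 without B3 and 114 without B1.

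**Figure D3:**
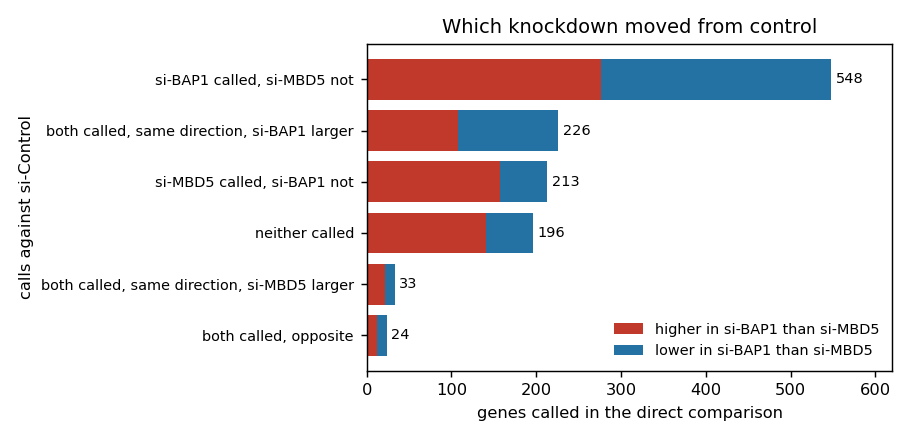
Bars count the 1240 genes called between the knockdowns (x axis) by their calls against si-Control (y axis), split into genes higher (red) and lower (blue) in si-BAP1 than in si-MBD5. The longest bar holds the 548 genes called with si-BAP1 and not with si-MBD5, and the shortest the 24 called in opposite directions.

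The 24 genes called in opposite directions had a median size of 0.432, and 12 were higher and 12 lower in si-BAP1. Beside DHRS2, the largest of the 12 higher ones were ISCA1, MTURN, CCND1 and ID1. Cyclin D1 (CCND1), which drives entry into the cell cycle, read 399, 420.3 and 395 with si-BAP1, 285, 289 and 272 with si-MBD5 and 351, 351 and 367 with si-Control. It rose by 0.17 with si-BAP1 and fell by 0.32 with si-MBD5 on the log2 scale, and all 3 of its further probe sets were called higher in the direct comparison. ISCA1 read 509.7, 517 and 525 against 328, 354 and 296, with 429, 449 and 468 in the controls. Among the 12 lower ones were PTPN11, TMED10 (-0.45), MCU (-0.44), HSP90AB1 (-0.43) and PELI2 (-0.41). The pore of the mitochondrial calcium uniporter (MCU) read 218, 220.1 and 216 with si-BAP1, 299.9, 308 and 293 with si-MBD5 and 275, 268 and 266 with si-Control. HSP90AB1, the constitutive HSP90, read 2168, 2046 and 2108, 2785, 2824 and 2918 and 2672, 2606 and 2495. In each of these the control arrays lay between the knockdowns. The call of the cargo receptor TMED10 was lost without _x_at and _s_at probe sets, with a log2 difference of 0.011.

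The list with the largest share of members called was that of the replication-dependent histone genes, which supply histones to newly copied DNA and lie in clusters, most of them on chromosome 6. Of 16 members tested, 7 were higher and none was lower in si-BAP1 than in si-MBD5 (43.8% called, against 9.98% of all genes), and the median log2 difference of the 16 was 0.148 against 0.0030 over all genes. A further 9 members on the array lay below the filter. H2BC5 read 908, 922 and 865 with si-BAP1, 621, 619 and 567 with si-MBD5 and 413, 483 and 486 with si-Control. H2BC11 read 64.7, 68.3 and 59.6 with si-BAP1, 34.7, 38.0 and 35.6 with si-MBD5 and 26.8, 24.7 and 30.2 with si-Control. In both genes si-BAP1 was highest, si-MBD5 intermediate and control lowest, with no overlap between the knockdowns. H3C4 read 219, 234 and 234 with si-BAP1 and 143, 161 and 161 with si-MBD5, where the controls read 149, 145 and 144. H2BC12, the brightest of the called members, read 2856, 3129 and 2854 against 2153, 2314 and 2176, with 2448, 2393 and 2380.0 in the controls. The log2 differences were 0.62 for H2BC11, 0.56 for H2BC5, 0.52 for H3C4, 0.44 for H2AC6, 0.41 for H2BC12, 0.30 for H4C8 and 0.23 for H2BC9. All 7 were called higher than control with si-BAP1, and 2 of them with si-MBD5. Leaving out 1 array at a time gave 5 to 7 members called higher, and all but H2BC9 (not called without B1 or M3) and H4C8 (not called without B1, B2 or M1) were called each time. Copies of these genes are near-identical, and H2AC6, H2BC11, H2BC9 and H4C8 were read by probe sets of the _s_at or _x_at kind, so signal may be shared between copies.

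The 4 called histone genes with the smallest adjusted p are shown with their promoters, since all 7 called members of this list were higher with si-BAP1. The sequences are those of RefSeq on GRCh38.p14, 150 bases before to 20 after the annotated start of the gene, read 5′ to 3′ on the gene's strand, and capitals mark ATTTGCAT (the octamer), CCAAT and TATAAA, each searched on both strands.
H2BC5, chr6:26157971-26158140, plus strand: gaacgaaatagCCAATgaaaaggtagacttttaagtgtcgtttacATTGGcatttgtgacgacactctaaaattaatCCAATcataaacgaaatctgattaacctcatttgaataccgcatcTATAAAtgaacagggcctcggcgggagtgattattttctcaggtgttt
H2BC11, chr6:27132776-27132945, minus strand: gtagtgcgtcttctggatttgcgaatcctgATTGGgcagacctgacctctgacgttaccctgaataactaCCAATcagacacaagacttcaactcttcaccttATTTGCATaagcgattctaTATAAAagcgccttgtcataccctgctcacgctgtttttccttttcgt
H2BC12, chr6:27146839-27147008, minus strand: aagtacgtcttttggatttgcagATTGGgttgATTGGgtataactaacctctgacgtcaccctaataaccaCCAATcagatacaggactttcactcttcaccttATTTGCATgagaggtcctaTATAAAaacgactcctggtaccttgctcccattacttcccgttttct
H3C4, chr6:26199274-26199443, minus strand: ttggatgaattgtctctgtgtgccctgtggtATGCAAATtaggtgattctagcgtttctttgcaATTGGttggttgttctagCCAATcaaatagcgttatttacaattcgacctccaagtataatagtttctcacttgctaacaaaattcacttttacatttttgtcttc
H2BC11 and H2BC12 held ATTTGCAT, CCAAT and TATAAA, H2BC5 held CCAAT and TATAAA, and H3C4 held CCAAT and, on the other strand, ATTTGCAT. In full windows of 300 bases, counting a gene with several starts where any of its windows held the motif, ATTTGCAT was present in 5 of the 7 called histone genes and in 4 of the 8 others with an entry, and in 1.77% of all 35116 promoters of that length. CCAAT was present in 6 of 7 and 8 of 8 (34.6% of all promoters), and TATAAA in 5 of 7 and 6 of 8 (11.5%). For H3C4 the TATAAA lay in the window of its other start, which is not shown. Called and other histone genes both held these motifs, and a match is a description of the letters only.

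**Figure D4:**
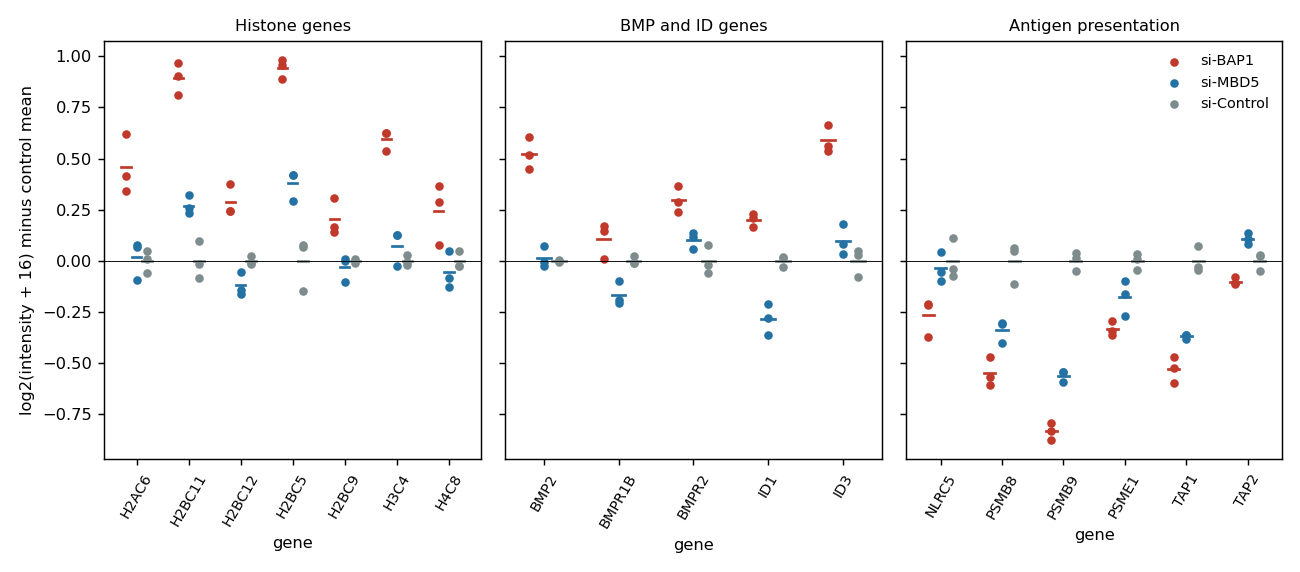
Each array's log2(intensity + 16) minus the control mean (y axis) is shown for the called members of 3 lists (x axis), with short lines at group means and si-BAP1 in red, si-MBD5 in blue and si-Control in grey. In all 7 histone genes and 5 BMP and ID genes the red points lie above the blue, and in the 6 antigen presentation genes they lie below.

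Genes of the chromatin pathways close to the 2 targets differed little as groups. Of 13 tested members of the BAP1 complex and its partners, 1 was called (7.69%, against 9.98% of all genes). It was the transcription factor FOXK2, higher with si-BAP1 by 0.19 (not called without B1). Of 17 genes for methyl-CpG-binding, DNA methylation and demethylation, 3 were higher and none lower (17.6% called, median 0.010). TET3, which oxidises 5-methylcytosine, read 230.5, 243 and 230.3 with si-BAP1 against 169, 185 and 155 with si-MBD5, a log2 difference of 0.44. UHRF1, which brings DNMT1 to newly copied DNA, differed by 0.33, and the glycosylase TDG, which excises oxidised methylcytosine, by 0.32. All 3 were separated between the groups and were called under every alternative that left out 1 array. Of 32 Polycomb subunits, 3 were higher and 1 lower (12.5% called). MTF2, an accessory subunit of PRC2, read 604, 611 and 611 against 468, 483 and 473, with 536, 524 and 504 in the controls, and all 8 of its further probe sets were called higher. RBBP4 (0.22, not called without B2, B3, M1 or M3) and CBX2 (0.17, not called without B2, B3, M1 or M3) were the other rises, and the higher calls dropped from 3 to 1 without B2 or B3 or M1 or M3. PCGF5, a PRC1 subunit, was the fall (-0.71). It rested on an _s_at probe set, and the brightest PCGF5 probe set of another kind gave 0.053. Of 19 HOX genes 1 was called (5.26%), HOXB9 at 0.17 (not called without B1, B2, B3, C2, M1 or M3).

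BMP signalling acts through receptor kinases and SMAD proteins on target genes such as those of the ID proteins, which hold back basic helix-loop-helix factors. Of 17 members tested, 5 were higher and none lower in si-BAP1 than in si-MBD5 (29.4% called), though the median over the 17 was 0.0084, since the 12 others lay on both sides of 0. The ligand BMP2 read 918, 875 and 978 with si-BAP1, 625, 669 and 635 with si-MBD5 and 639.5, 634 and 636 with si-Control. Only the si-BAP1 arrays stood apart there. The receptors BMPR1B and BMPR2 differed by 0.27 and 0.19 (not called without B2, B3 or M1). The target ID3 read 525, 575 and 533 with si-BAP1, 365, 379 and 405 with si-MBD5 and 369, 337 and 364 with si-Control. ID1 read 163, 169 and 171, 109, 116 and 122 and 140.5, 145 and 146, so that it was above control with si-BAP1 and below with si-MBD5. Both further probe sets of ID1 and of ID3 and the second of BMP2 were called higher as well. Leaving out 1 array at a time gave 4 to 6 members called, all of them higher.

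Other developmental target lists held fewer calls, and for Wnt and Notch targets and mesenchymal genes the share was close to the 9.98% of all genes. Of 23 YAP and TAZ targets, 4 were higher and none lower (17.4% called, median 0.084): the ectonucleotidase NT5E (0.39), DOCK5 (0.35), FOXF2 (0.27) and GADD45B (0.20, not called without B1, B2, B3, M1 or M3). NT5E read 65.3, 75.8 and 68.5 against 54.5, 52.1 and 42.0, with 71.1, 75.3 and 85.8 in the controls, so the si-MBD5 arrays were the low ones. FOXF2 read 1216, 1255 and 1154 against 953, 1007 and 1039, above 899.8, 887 and 857, and there both knockdowns were called higher than control. Of 22 Wnt and Notch targets, 3 were higher and none lower (13.6%): CCND1, SOX4 (0.35) and HEY1 (0.27, not called without B1, B2, B3, C1, C2, C3 or M1). SOX4, a transcription factor of biliary development, read 654, 733 and 662 against 534, 510.4 and 552, with 694, 634 and 646 in the controls, and 5 of its 6 further probe sets were called. Of 25 mesenchymal and matrix genes, 3 were higher and none lower (12%), namely the transcription factor SNAI2 (0.35) and the collagens COL5A1 (0.26) and COL4A2 (0.18).

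Outputs of the ERK pathway were lower with si-BAP1 than with si-MBD5 in 6 of 24 members and higher in 2 (33.3% called, median -0.022). Of the 6, ETV1, ETV5 and IER3 were called lower than control in both knockdowns, farther with si-BAP1. ETV5, an ETS factor induced by ERK, read 105, 115 and 112 with si-BAP1, 135, 142 and 135 with si-MBD5 and 207, 189 and 192 with si-Control. ETV1 read 84.6, 92.3 and 86.6, 119, 123 and 111 and 140.0, 153 and 163, and IER3 read 513, 545 and 487, 615, 629 and 627 and 932, 912 and 865. In these 3 genes the groups formed 3 steps without overlap. The ERK phosphatase DUSP6 (-0.29, not called without B1 or B3) and the transcription factors FOSL1 (-0.22, not called without B1, B2, B3, C2, C3 or M3) and EGR1 (-0.19, not called without B3) were the other falls, and CCND1 and JUN (0.26, not called without B2, B3, C1, C2, C3, M1 or M3) the rises. Without B3, and also without _x_at and _s_at probe sets, 3 of the 6 falls were called. In the AP-1 and immediate early list, which shares FOSL1, EGR1 and JUN with it, 5 of 21 members were higher and 2 lower (33.3% called). KLF4 read 1014, 1081 and 1018 against 835, 823 and 765 (0.36) and the orphan nuclear receptor NR4A3 read 220.3, 229.6 and 231 against 186, 193 and 176 (0.28). FOSL2 (0.25, not called without M1) and IER5 (0.19, not called without B1, B2, B3, C2, M1 or M3) completed the rises, which numbered 2 without M1 and 3 without B2 or B3, C2 or M3. The JUN call had overlapping arrays.

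Cell cycle genes were counted by phase, and the difference between phases was not tested. Of 43 genes of G1/S and DNA replication, 7 were higher and 1 lower in si-BAP1 than in si-MBD5 (18.6% called, median 0.044). CDC25A, the phosphatase that activates CDK2, read 380.5, 391 and 356 with si-BAP1, 294, 284 and 268 with si-MBD5 and 283, 289 and 262 with si-Control. RRM2, a subunit of ribonucleotide reductase, read 1727, 1846 and 1830.2, 1498, 1444 and 1319 and 1446, 1487 and 1425. In both the 3 si-BAP1 arrays lay above all 6 others. UHRF1 (0.33) and CCNE1 (0.25) followed, while CCNE2 was lower (-0.35, not called without B1, B3, M1 or M2). Of 41 mitotic genes, none was higher and 4 were lower (9.76%, close to the 9.98% of all genes, median -0.032). BIRC5 (survivin) read 755, 771 and 772 with si-BAP1, 947, 1001 and 1002 with si-MBD5 and 803, 793 and 788 with si-Control, and 6 of its 10 further probe sets were called lower. HMMR (-0.25) and CDC20 (-0.15, not called without B1, B2, B3 or M3) had the same order, with si-MBD5 above control. CDK1, the kinase that starts mitosis, read 1216, 1385 and 1276 against 2111, 2171 and 2043 on an _s_at probe set, with 1976, 1976 and 2070.4 in the controls. Its second probe set, at a mean of 447, differed by -0.089 and was not called. Against control, 16 of the 41 mitotic genes were higher with si-BAP1 and 19 with si-MBD5. Of 24 homologous recombination and Fanconi genes, 2 were higher (8.33%, median 0.079), BARD1 at 0.23 and RAD51C at 0.15 (not called without B1, B2, M1 or M3).

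The targets of p53, which had fallen in both knockdowns (18 and 21 of 27 lower than control with si-BAP1 and si-MBD5), were called between them in 3 of 27 cases, 2 higher and 1 lower (11.1%, median 0.022). CDKN1A, the p21 inhibitor of cyclin-dependent kinases, read 807, 787 and 806 with si-BAP1, 789, 782 and 853 with si-MBD5 and 1655, 1713 and 1583 with si-Control. Its direct log2 difference was -0.013 with a 95% interval of -0.10 to 0.074 (adjusted p = 0.891, limma), and the knockdown arrays overlapped. The death receptor FAS differed by -0.0064 (-0.16 to 0.15) and the stress cytokine GDF15 by -0.097 (-0.21 to 0.017). GADD45A (0.21, not called without B2, B3 or M1) and PLK2 (0.17, not called without B1, B2, B3, M1 or M3) were higher and TRIAP1 (-0.15, not called without B3) lower. The 2 rises were not called without B2 or B3 or M1, and 4 were called without M2.

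Genes with large calls in both knockdowns are given next, some of them called between the knockdowns and some not. RAB8B, a small GTPase, fell with both and was not called between them (-0.13, -0.28 to 0.026). ELK3, an ETS repressor, read 36.8, 48.7 and 43.0 with si-BAP1, 67.8, 67.3 and 55.1 with si-MBD5 and 98.2, 117 and 111 with si-Control, a called difference of -0.43. Among shared rises, the glucosidase II subunit GANAB differed by 0.067 (-0.052 to 0.19) and was not called. PXYLP1 read 323, 316 and 306, 203, 195 and 203 and 131, 127 and 131, and PPP2R2B, a regulatory subunit of PP2A, read 275, 299.9 and 272, 190.0, 211 and 166 and 99.3, 104 and 128. SERPINI1 (0.55) and the kinase MYLK3 (0.30) were also higher with si-BAP1. In these 4 the 3 groups formed steps without overlap, control lowest and si-BAP1 highest.

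Genes of antigen presentation were lower with si-BAP1 in 6 of 21 members and higher in none (28.6% called, median -0.080). PSMB9, a subunit of the immunoproteasome, read 78.9, 84.4 and 81.9 with si-BAP1, 103, 99.3 and 103 with si-MBD5 and 159, 163 and 152 with si-Control. PSMB8, another such subunit, read 195, 216 and 202, 227, 244 and 244 and 321, 317 and 281 (-0.21, not called without B1, B3, M2 or M3). Both had fallen in each knockdown, farther with si-BAP1. The 2 further PSMB9 probe sets gave -0.242 and 0.0598 between the knockdowns, and neither was called. The peptide transporter subunits TAP1 and TAP2 differed by -0.16 (not called without B1, B3, M1, M2 or M3) and -0.21, the proteasome activator PSME1 by -0.16 (not called without B1, B2, B3, C1, C2, M2 or M3) and the class I transactivator NLRC5 by -0.23 (not called without B1, B2, B3, C2, M1 or M2). This count rests on single arrays, with 2 members called without B1 or B3 or M2 and 3 without M3. Against control, 10 of the 21 were lower with each knockdown. Of 19 type I interferon targets, 1 was higher and 1 lower (10.5%).

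Receptors and ligands of the IL6 family moved in different directions. IL6 read 62.1, 66.4 and 50.7 with si-BAP1, 75.8, 78.9 and 80.9 with si-MBD5 and 88.8, 99.4 and 90.8 with si-Control. The receptors LIFR and OSMR differed by -0.29 and -0.25, and OSMR was above control in both knockdowns. The shared signalling subunit IL6ST (gp130) read 740.0, 802 and 752 against 555, 539 and 457, with 916, 942 and 1006 in the controls, so that it fell more with si-MBD5. Of its 5 further probe sets 4 were called higher, and the fifth gave -0.076. In all, 1 of 14 members was higher and 3 were lower (28.6% called, against 9.98% of all genes). Of 17 NF-kB targets, TNFAIP3 (A20), an inhibitor of the pathway, was higher at 311, 341 and 321 against 241, 242 and 206, and IL6 and IER3 were lower (17.6% called). Of 17 TNF receptor superfamily members, 4 were lower and none higher (23.5%). TNFRSF21 read 138, 139.8 and 141 with si-BAP1 and 209.5 on each of the 3 si-MBD5 arrays, below 244, 275 and 295 in the controls. TNFRSF11B (-0.24), TNFRSF1A (-0.18, not called without B1, B2, B3 or M3) and TNFRSF12A (-0.16, not called without B1, B2, C2, M2 or M3) were the others, and 2 of the 4 were called without B1 or B2 or M3. Of 27 genes of apoptosis, which are the BCL2 and caspase families with inhibitor of apoptosis proteins and partners of cytochrome c, 5 were higher and 2 lower (25.9%). The initiator caspase CASP9 read 252, 262 and 245 against 198, 192 and 201 (0.34), while its second probe set gave -0.0089 and was not called. CASP2 (0.25), BIRC6 (0.24, not called without B3 or M3) and BCL2L2 (0.15, not called without B1, B2, B3, C2 or M1) followed. The falls were BIRC5 (-0.35) and cytochrome c, CYCS (-0.20, not called without B1, B3 or M1), neither of them a BCL2 or caspase family member. The 5 rises numbered 2 without B3 and 3 without B1 or B2, C2 or M1 or M3.

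Actin regulators were called in 9 of 27 cases (33.3%), 5 higher and 4 lower, with a median of 0.0041. CD2AP and CORO1C, described above, were the largest falls. TPM1, a tropomyosin that stabilises actin filaments, read 1121, 1138 and 1179 with si-BAP1, 826, 839.8 and 888 with si-MBD5 and 1335, 1276 and 1165 with si-Control. The si-MBD5 arrays lay below all controls, while the si-BAP1 arrays lay mostly below the controls but overlapped them. Of the 8 further TPM1 probe sets, 3 were called higher. CNN2 (0.24), TAGLN2 (0.16, not called without B2, B3 or M1), MYLK3 and CAPZA2 (0.14, not called without B1, B2, B3, C2, M1 or M3) were also higher. CAPG (-0.22, not called without B3) and CAPZA1 (-0.13, not called without B1, B3, C1, C2, M1, M2 or M3) were the other falls. The rises numbered 3 without B2 or B3 or M1, and the falls 2 without B3. With the mean of probe sets 2 rises were called, and without _x_at and _s_at probe sets 2 falls. Of 16 integrins, 2 were lower and none higher (12.5%), ITGA6 at -0.31 and ITGA2 at -0.30. Of 19 annexins and S100 proteins, 3 were higher and 1 lower (21.1%). S100A16 read 592, 593 and 582 against 436, 443 and 466, both below 826, 855 and 802, and ANXA1 read 2371, 2384 and 2417 against 1999, 2124 and 2046. ANXA3 was higher by 0.27 (not called without B2, B3, C2, M1, M2 or M3). ANXA11 was lower by -0.14 (not called without B1, B2, B3, C2, M1 or M3).

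**Figure D5:**
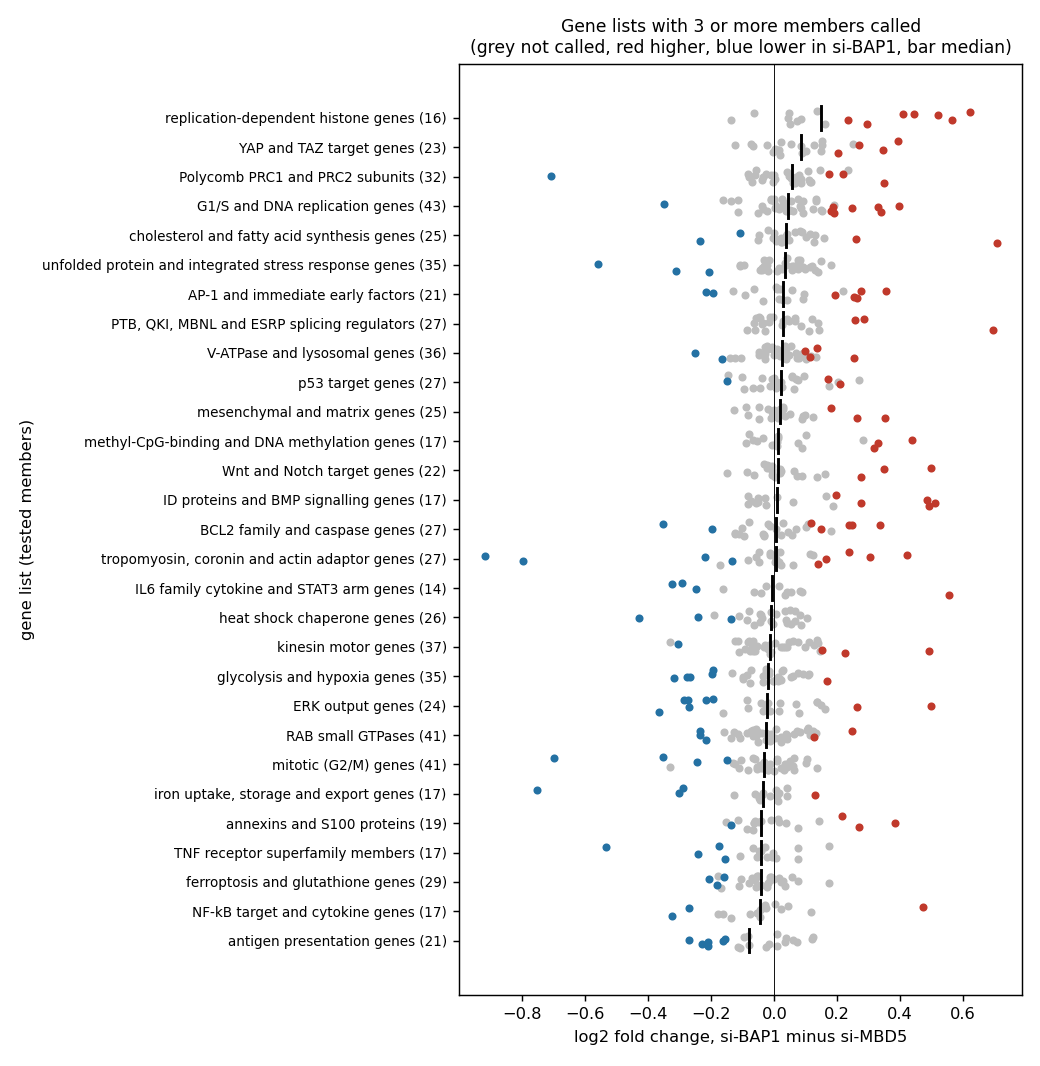
Each row is a gene list with 3 or more members called (tested members in brackets), each point a member at its log2 difference, si-BAP1 minus si-MBD5 (x axis), red where called higher, blue where called lower and grey where not called, and the bar is the list's median. Histone genes lie farthest right, with a median of 0.148, and antigen presentation genes farthest left, with -0.080, while most medians lie near 0.

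Metabolic lists are given by their called members. Of 25 genes of cholesterol and fatty acid synthesis, 2 were higher and 2 lower (16%). MSMO1 was one rise, and ACACA, the acetyl-CoA carboxylase that starts fatty acid synthesis, read 509, 547 and 539 with si-BAP1 against 439, 441 and 444 with si-MBD5. The elongase ELOVL5 (-0.24, not called without M1) and the desaturase SCD (-0.11, not called without B1, B2 or M1) were lower, and without M1 neither was called. Of 35 glycolysis and hypoxia genes, 5 were lower and 1 higher (17.1%, median -0.021). Carbonic anhydrase CA12 read 51.3, 55.0 and 55.0 with si-BAP1, 67.2, 72.3 and 73.5 with si-MBD5 and 82.0, 82.4 and 80.0 with si-Control. Hexokinase HK1 read 343, 317 and 339.6, 393, 414 and 414 and 488, 490.5 and 452, and the stress gene NDRG1 (-0.27), PDK3 (-0.20, not called without B1, B2, B3, M2 or M3) and aldolase ALDOC (-0.19) completed the falls. Of 17 iron genes, 3 were lower and 1 higher (23.5%). SCARA5 read 56.1, 53 and 52.3 against 98.3, 105 and 101, the iron importer SLC11A2 (DMT1) read 188, 190.4 and 185 against 233, 249 and 225 (its 3 further probe sets gave 0.0035 to 0.099, none called, and the call was lost with the mean of probe sets), and HFE differed by -0.29. The transferrin receptor TFRC was higher by 0.13 (not called without B1, B2, B3, M1 or M3). Of 29 ferroptosis and glutathione genes, 3 were lower (10.3%, close to the 9.98% of all genes). They were the cystine transporter SLC7A11 (-0.21), the heme oxygenase HMOX1 (-0.18, not called without B1, B3, C2, M2 or M3) and AIFM2 (-0.16, not called without B1, B3, C2, M1 or M2). Oxidative phosphorylation genes were called in 1 of 48 cases (2.08%) and ribosomal protein genes in 2 of 50 (4%), both below the 9.98% of all genes.

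Chaperones and endoplasmic reticulum genes were called about as often as all genes (9.98%). Of 26 heat shock genes, 3 were lower (11.5%), HSP90AB1, HSPA4L (-0.24, not called without B1, B3 or M1) and HSPH1 (-0.14, not called without B1, B3 or M1), and HSP90AB1 alone was called without B1 or B3 or M1. Of 35 genes of the unfolded protein and integrated stress responses, 3 were lower (8.57%). The lectin chaperone calnexin (CANX) read 3247, 3133 and 3231 with si-BAP1, 3933, 3919.5 and 4104 with si-MBD5 and 4096, 3869.8 and 3853 with si-Control, and 6 of its 8 further probe sets were called lower. The lipoprotein receptor VLDLR read 58.8, 67.0 and 72.2 against 94.2, 112 and 108, with 92.0, 102 and 94.7 in the controls. In both genes the si-BAP1 arrays alone lay below control. Of 36 lysosomal genes, 4 were higher and 2 lower (16.7%). Cathepsin CTSZ (0.25, not called without B3 or M1), GUSB (0.14, not called without B2, B3 or M1), ATP6V1D (0.11, not called without B1, B2, B3, C2, M1 or M2) and NPC2 (0.097, not called without B1, B2, C1, C2, C3, M1, M2 or M3) were higher, SQSTM1 (-0.25, not called without B1, B3, M1 or M2) and SCARB2 (-0.17) lower. The 4 rises fell to 0 called without M1, to 1 without B2 or B3 and to 2 without B1 or C2.

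Splicing regulators, among them those of the PTB, QKI, MBNL and ESRP families, were higher in 3 of 27 cases and lower in none (11.1%). Beside QKI, PTBP2 read 361, 379 and 337 with si-BAP1 and 308, 296 and 271 with si-MBD5, both below 452, 471 and 489, and CELF2 read 120.1, 127 and 116 and 99.3, 99.3 and 98.1, both above 83.7, 86.2 and 90.6. Without M2 the list had 6 rises, and without _x_at and _s_at probe sets it had 1. Of 37 kinesins, 3 were higher and 1 lower (10.8%). KIF26B read 79.9, 84.6 and 80.4 with si-BAP1, 52.1, 59.1 and 49.7 with si-MBD5 and 29.8, 33.0 and 36.9 with si-Control, in 3 steps without overlap. Its second probe set gave -0.0125 and was not called. KIF26A (0.22) and KIF1B (0.15, not called without B1, B2, B3, C2, M1 or M3) were also higher and KIF16B (-0.30, not called without B3 or M1) lower. KIF1B has no settled direction, since none of its 4 further probe sets was called higher and 1 was called lower (-0.199). Of 41 RAB GTPases, 2 were higher and 3 lower (12.2%). RAB13 read 1471, 1559.7 and 1534 against 1778, 1857 and 1751 and RAB14 1029.7, 1027 and 1046 against 1195, 1214 and 1202, with si-BAP1 alone called below control, while RAB40B (-0.24, not called without B1, B3 or M2) was lower and RAB2B (0.25) and RAB22A (0.12, not called without B2, B3, C1, C2, C3, M1 or M2) were higher.

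Across all 49293 non-control probe sets, 1752 (3.55%) were called, 1001 higher and 751 lower, and 135 of them had no single gene symbol. Probe sets of 1 gene did not always carry the same call. Of 107 named genes called with further probe sets above the filter, all further ones were called the same way in 30, some in 21 and none in 56. In 4 of 7076 genes with 2 or more probe sets above the filter, probe sets were called in both directions: SEPTIN2, TASOR, DR1 and GOSR2. The bright SEPTIN2 probe set read 1592, 1607 and 1629 with si-BAP1 and 1841, 1901 and 1918 with si-MBD5 (-0.23), a second bright one gave -0.23, and 2 dimmer ones gave 0.28 and 0.26. TASOR, a core subunit of the HUSH silencing complex, gave -0.19 on its bright probe set and 0.43 and 0.31 on 2 dimmer ones. The bright TASOR probe set was above control in both knockdowns, farther with si-MBD5. DR1 gave -0.36 on its brightest and 0.16 on a dimmer one. GOSR2 gave 0.17 and -0.27 on dimmer probe sets and was not called on its brightest (-0.04). KIF1B, called higher in the fit over genes, had a further probe set called lower. For these 5 genes no single direction is given. Among the other genes named here, the call was lost with the mean of probe sets for ALDOC, ANXA11, ANXA3, BCL2L2, CAPZA1, CAPZA2, CDC20, CNN2, FOSL1, FOSL2, GADD45B, HFE, HMOX1, HSPH1, IER5, IFITM2, JUN, NDRG1, NPC2, PLK2, PSME1, PTBP2, RAB22A, RAD51C, SCARB2, SCD, SLC11A2, TAGLN2, TAP1, TNFRSF1A and UNC13B. It was lost without _x_at and _s_at probe sets for ALDOC, ANXA3, ATP6V1D, CAPZA1, CAPZA2, CCNE1, CD2AP, CDC20, CDK1, CELF2, CYCS, ETV5, FOSL1, HFE, HSPH1, IFI35, IL6ST, ITGA6, JUN, NPC2, NUP43, PCGF5, PLK2, RBBP4, TMED10 and TNFRSF1A.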

How the data were processed

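RNA of HCCC-9810 cells was read on Affymetrix arrays, 3 per group. The authors deposited 1 linear intensity for each probe set on each array, made with MAS5 per the submitters' processing notes (version not given in the sources used here). Since array medians were near-equal, the arrays were not rescaled. The table held 49395 probe sets, of which 102 were controls, 44988 had 1 gene symbol, 1832 several and 2473 none. A RefSeq table of gene identifiers gave current symbols for 44961, and 27 were kept.

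From the deposited intensity, log2(intensity + 16) was computed. The brightest probe set stood for a gene where it exceeded the 40th percentile on average (25.5), as in 12431 of 18132 genes. limma 3.58.1 in R 4.3.3 fitted the means of the 3 groups on all 9 arrays, leaving 6 residual degrees of freedom, and used an intensity trend. P-values were adjusted by Benjamini-Hochberg over all genes, or over all 49293 probe sets where probe sets are given. The script was tested on simulated data. Exact permutation tests were two-sided. Figures used matplotlib 3.10.9 in Python 3.11.15. Promoters came from a RefSeq table on GRCh38.p14, in windows from 250 bases before to 50 after the start, and 15 of the 16 tested histone genes were matched.

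The comparison, the 45 gene lists and the named genes were chosen with earlier results of these data known, so lists are described by counts and medians and not tested. Genes were named by a rule that took the targets, then the 15 rises and 15 falls of greatest size with separated arrays, up to 4 members of each list with at least 3 calls and 2 of the other direction, 5 shared rises and 5 shared falls, up to 5 opposite movers each way, and genes with probe sets called both ways. Symbols of unnamed loci were skipped. Called list members beyond that rule were named after their values were seen. Alternatives changed the added constant (1 or 64), the scaling (quantile or median centring), the filter (none, or the 60th percentile), the reading of a gene (mean over probe sets, or no _x_at or _s_at probe sets), the model (replicate block, 2 groups only, no trend, array weights) and the arrays (each left out in turn). Identical values made up 3.75 to 5.29% of each of the 15 pairs of knockdown arrays, so no array was a copy of another.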

Additional observations from a re-analysis of the deposited data

Results flagged for a closer look

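In 11 named genes the knockdowns had moved in opposite directions from the same si-Control arrays, each with a call against control in both and a called difference between them in limma. The log2 difference, si-BAP1 minus si-MBD5, was 1.03 for DHRS2, 0.645 for ISCA1, 0.586 for MTURN, 0.497 for CCND1, 0.483 for ID1 and 0.348 for MTF2, where si-BAP1 had risen and si-MBD5 had fallen. It was -0.802 for PTPN11, -0.454 for TMED10, -0.435 for MCU, -0.429 for HSP90AB1 and -0.41 for PELI2, where si-BAP1 had fallen and si-MBD5 had risen. With 3 arrays a group, single arrays far from their group were not tested.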

How the results depend on the processing

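Of 3740 values of 180 genes (the named genes and all called list members) under the alternatives, 3267 kept direction and side of the threshold, 453 kept direction only, none became called and 20 changed sign, 9 of them in called genes. Of the 174 genes called, 90 kept their call under all settings run for them, and a gene absent from a setting could not lose its call there. The 11 other changes of sign were in genes not called. They were FAS with median centring (0.00152), the mean of probe sets (0.0468), no _x_at or _s_at probe sets (0.1001), without B1 (0.0150), B3 (0.0541) and M2 (0.0363), CDKN1A with the mean of probe sets (0.00253), no such probe sets (0.0180), array weights (0.00399) and without M3 (0.0257), and GOSR2 with the mean of probe sets (0.0116). Leaving out 1 array at a time gave -0.0884 to 0.0541 for FAS and -0.0352 to 0.0257 for CDKN1A. Calls with _x_at and _s_at probe sets left out turned for DR1 (0.229), SEPTIN2 (0.282), PCGF5 (0.0532), NUP43 (0.0110), TMED10 (0.0106) and IL6ST (-0.0759). With the mean of probe sets they turned for TASOR (0.183), SEPTIN2 (0.0220) and BCL2L2 (-0.0189). These settings read another or more probe sets per gene. Probe sets called numbered 1031 without those types, 993 in a fit of only the 2 groups and 2643 with array weights, which also gave 1120 genes higher. Leaving out 1 array at a time gave 721 to 1326 genes called, 346 to 867 higher, 332 to 513 lower and 900 to 1832 probe sets called. The MBD5 difference was run under 3 alternatives, on the brighter probe set only. It was called with quantile normalization (0.108, adjusted p = 0.0298 in limma) and not with constants of 1 or 64. The cause was not tested. The deviations of same-numbered si-BAP1 and si-MBD5 arrays from their group means correlated at 0.0929, 0.48 and -0.0738. Those of differently numbered arrays correlated at -0.556 to 0.47. With 3 arrays a group, these values cannot settle whether the numbers pair the samples. The replicate block gave 1116 genes called, 624 higher and 492 lower. Signals near background, such as those of MBD5, limit what 3 arrays a group can show.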

Other observations

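The remaining lists held at most 2 calls between the knockdowns, where 9.98% of all genes were called. Of 21 epithelial junction genes, 2 were higher in si-BAP1 than in si-MBD5 (9.52%), the keratin KRT8 at 0.25 and the desmoglein DSG2 at 0.36. Of 24 ABC transporters, ABCA13 was higher and the drug exporter ABCG2 was lower at -0.29 (8.33%). ABCA13 passed the intensity filter through its si-BAP1 arrays, as described above. Of 10 serpins and plasminogen system genes, SERPINI1 was higher and SERPINE2, an inhibitor of thrombin and plasminogen activators, was lower at -0.55 (20% called). Of 18 neuronal exocytosis genes, SV2B was higher and the priming factor UNC13B was lower at -0.16 (11.1%), a call lost without B1, B3, M1, M2 or M3. Of 11 complement genes, the protease C1S was lower at -0.19 (9.09%). Of 9 cholangiocyte markers above the filter, SOX4 was higher and ONECUT2, a hepatobiliary transcription factor, was higher at 0.20 (22.2% called). The ONECUT2 call was lost without B1, B2, B3, C2, M1 or M3. In the type I interferon list IFITM2 was higher at 0.13 and IFI35 lower at -0.21. The IFITM2 call was lost without B1, B2, B3, C2, M1 or M2, and the IFI35 call without _x_at and _s_at probe sets.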
